A study of Mus musculus with 8 samples.

Results

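Mast cells (MC) sorted from Panc02 tumors were compared with MC lavaged from the peritoneum of tumor-bearing mice, over all 8 arrays of the series: 4 arrays of tumor MC and 4 of peritoneal MC. All mice were C57BL/6J and had Panc02 cells, a murine pancreatic adenocarcinoma line, injected under the skin of the flank. At a tumor volume of 100 mm3 they were randomized to placebo or to 40 mg/kg DC101, an antibody that blocks VEGFR2. Each tissue therefore holds 2 placebo arrays and 2 DC101 arrays, and no array comes from a tumor-free mouse. Cell suspensions of both tissues were stained for DAPI, CD45, CD11b, CD117 and FceRI before sorting, but neither the gates nor the purity of the sorts were stated. The sources used do not state the age of the mice, the time on treatment or the number of mice behind an array, so a p-value measures only the spread between arrays, which may be technical.

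MC leave the bone marrow as progenitors and mature in tissue under KIT ligand. They store histamine, heparin-bound proteases and other mediators in granules and release them when IgE bound to the high-affinity receptor FceRI is cross-linked. In rodents, connective tissue MC of skin and peritoneum carry chymases such as Mcpt4 and Cma1, tryptases and carboxypeptidase A3, whereas mucosal MC are known for the chymases Mcpt1 and Mcpt2. Activated MC also make cytokines, chemokines, lipid mediators and angiogenic factors.

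Of 24111 transcript clusters 3524 differed between tumor and peritoneal MC, among them 4 of 18 genes of MC identity. Tumor MC held more transcript of the mucosal-type chymases Mcpt1 and Mcpt2, of the orphan receptor Mrgpra9, of Il6, Il13, Kitl, Vegfa, Ptgs2 and of collagen, hypoxia, interferon and cell cycle genes. Peritoneal MC held more of Ctsg, Alox15, Ltc4s, Ccl24, Cxcl13, Syk and Toll-like receptor genes. Both directions came with markers of other cell types, of fibroblasts together with Krt8, Krt18 and Msln in tumor arrays and of B cells and macrophages in peritoneal arrays.

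A cluster was called when the limma difference between the tissues, with treatment as a second term, had a Benjamini-Hochberg adjusted p under 0.05 and a log2 difference of at least 1, that is a fold of 2. By this rule 14.6% of all clusters were called, 2031 of them (8.42%) higher in tumor MC and 1493 (6.19%) lower. The median log2 difference of all clusters was -0.03. Centring each array on cytosolic ribosomal protein genes, which shifted this median by 0.19 on the log2 scale, raised the share of higher clusters among the called from 57.6% to 68.6%. Pairs of arrays from one group correlated at 0.974 to 0.986 across clusters and pairs from different tissues at 0.879 to 0.905. The first principal component held 69.1% of the variance and separated the tissues, and the second held 12% and separated the peritoneal placebo arrays from the peritoneal DC101 arrays. Values are the deposited log2 intensities and are listed in the order placebo 1, placebo 2, DC101 1, DC101 2. They carry no detection call, low values cannot be told apart from background, and levels of different genes are not compared.

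**Figure D1:**
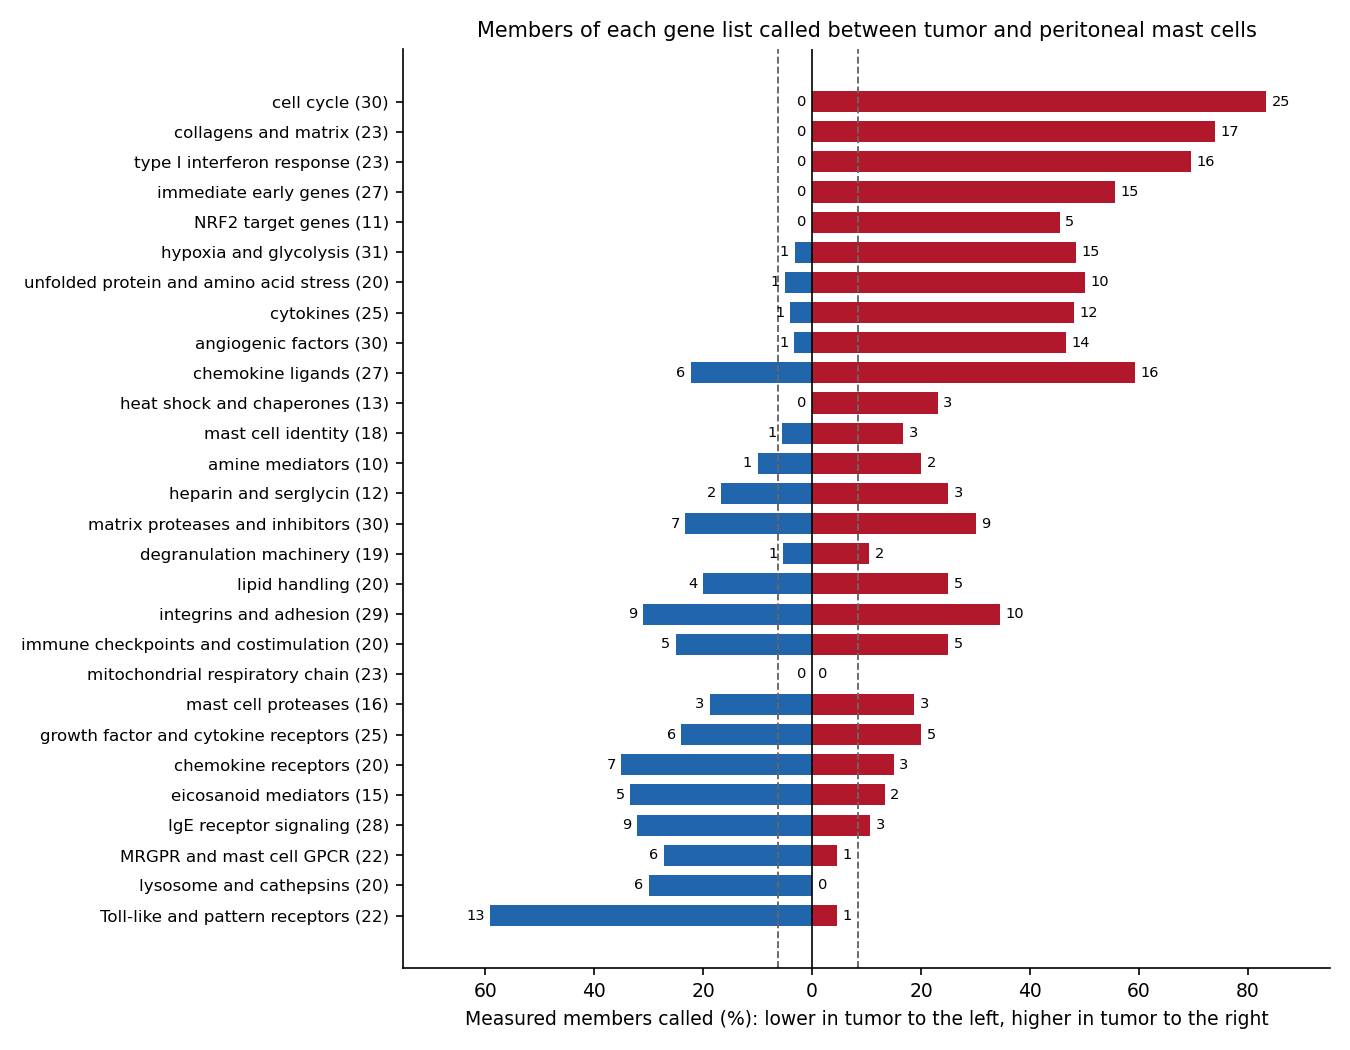
Each bar gives the percentage of a list's measured members (number in parentheses) that were called higher in tumor MC (red, right) or lower (blue, left), with the count at its end, and the dashed lines mark the shares over all 24111 clusters, 8.42% higher and 6.19% lower. Cell cycle genes stand at 25 of 30 higher, and Toll-like and pattern receptors at 13 of 22 lower.

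In a first step genes of the labelled cell type were looked up. All 18 measured MC identity genes lay above the median cluster mean of 3.48 in at least 1 tissue. The same held for all 11 B cell markers and all 20 macrophage and monocyte markers, so this does not set MC apart from other cells. Kit, the receptor for KIT ligand that was used for sorting as CD117, read 10.20, 9.26, 9.36 and 10.11 in tumor MC and 9.80, 9.52, 8.96 and 9.03 in peritoneal MC. Fcer1a, the IgE-binding chain of FceRI, read 9.54, 9.27, 9.31 and 9.78 in tumor MC and 9.80, 9.69, 9.49 and 9.75 in peritoneal MC. Both sets of arrays overlapped, with a log2 difference of 0.41 (SE 0.26, adjusted p = 0.307) for Kit and -0.21 (SE 0.17, adjusted p = 0.429) for Fcer1a. Both genes encode antigens stained before sorting, so their levels are no independent check of the cell type. Of the 18 identity genes, 3 were called higher in tumor MC, namely Csf2rb2, a beta chain used by the IL-3 receptor (3.44-fold), Hdc, which makes histamine (2.7-fold), and Gata2, a transcription factor of the lineage (2.11-fold). Gata1, a related factor, was 2.49-fold lower. Gata1 was called in neither treatment arm alone, and its call was lost with ordinary least squares. The Gata1 call was also lost without the peritoneal placebo arrays or without the peritoneal DC101 arrays. With placebo alone Csf2rb2 was the only identity gene called. The list median was 0.03. The number called higher fell to 1 without the peritoneal DC101 arrays and rose to 6 without tumor placebo array 2. Gata2 lost its call without tumor placebo array 1, tumor DC101 array 2 or peritoneal DC101 array 1.

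Within the tumor, identity genes differed between arrays. The mean of the list was 8.58 in placebo array 1 and 8.49 in DC101 array 2, against 7.74 in placebo array 2 and 7.79 in DC101 array 1. Hdc read 10.53, 9.61, 9.20 and 10.24, and Slc18a2, the vesicular monoamine transporter, showed the same division with 9.27, 8.04, 8.30 and 9.28. Both treatments thus hold 1 array with higher and 1 with lower levels of MC genes. In bulk RNA, fewer cells of a type and less RNA per cell cannot be told apart.

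Markers of other cells moved with the tissue. Of 11 fibroblast markers 10 were called higher in tumor arrays, with a mean list level of 6.52 to 6.79 in tumor arrays against 3.11 to 3.71 in peritoneal arrays. Pdgfra, a receptor that marks fibroblasts, read 7.51, 6.89, 7.42 and 6.65 in tumor arrays and 1.51, 1.92, 1.79 and 2.67 in peritoneal arrays. Fap, expressed by activated fibroblasts, stood at 2.58 to 3.20 in tumor arrays, below the median cluster. The keratins Krt18 (20.9-fold) and Krt8 (15.1-fold) and mesothelin, Msln (20.8-fold), were called higher in tumor arrays, whereas Epcam, an epithelial adhesion molecule, was 3.86-fold lower and lay at 2.44 to 2.81 there. The keratin Krt7 was 2.12-fold lower, a call lost without tumor placebo array 2 or peritoneal placebo array 1, and Krt19 differed by 0.89 (SE 0.57) and was not called. The 11 markers of epithelial and tumor cells, 3 higher, 2 lower and 6 not called with a median difference of -0.22, together ranged from 5.19 to 5.56 in tumor arrays and from 3.53 to 5.08 in peritoneal arrays. Of 10 endothelial markers 3 were called higher and 1 lower, with Kdr, which encodes VEGFR2, at 2.42 to 2.87 in tumor arrays and 1.96 to 3.03 in peritoneal arrays.

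In the peritoneal arrays all 11 measured B cell markers were higher, with list means of 6.63 to 8.08 against 3.04 to 3.53 in tumor arrays. Cd79b, a chain of the B cell receptor complex, read 10.49, 10.50, 9.80 and 9.26 in peritoneal arrays and 3.55, 4.11, 3.59 and 3.89 in tumor arrays. Macrophage and monocyte markers were lower in tumor arrays for 14 of 20 and higher for 2, with means of 6.10 to 6.40 against 7.64 to 8.45. Timd4, a receptor of resident peritoneal macrophages, was 37.7-fold lower in tumor arrays, and 9 of 12 dendritic cell and MHC class II genes and 7 of 11 neutrophil markers were also lower. Itgam, which encodes the sorted antigen CD11b, read 6.08, 6.65, 5.94 and 5.94 in tumor arrays and 9.46, 9.51, 9.86 and 9.74 in peritoneal arrays, an 11.2-fold difference. Its levels did not overlap between the tissues. Among 16 T and NK cell markers 1 was higher and 2 were lower, and the higher count was 4 without tumor placebo array 1. With placebo none was higher and 7 were lower, with DC101 5 were higher and 2 lower, and the peritoneal list means were 5.85 and 5.82 with placebo and 4.41 and 3.98 with DC101. Of 6 eosinophil markers 2 were lower, Ccr3 and Il5ra, with a list median of -1.10 and means of 2.28 to 2.46 in tumor arrays against 3.49 to 4.95 in peritoneal arrays. The eosinophil granule gene Epx lay at 1.59 to 2.12 in tumor arrays and 2.08 to 2.59 in peritoneal arrays.

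**Figure D2:**
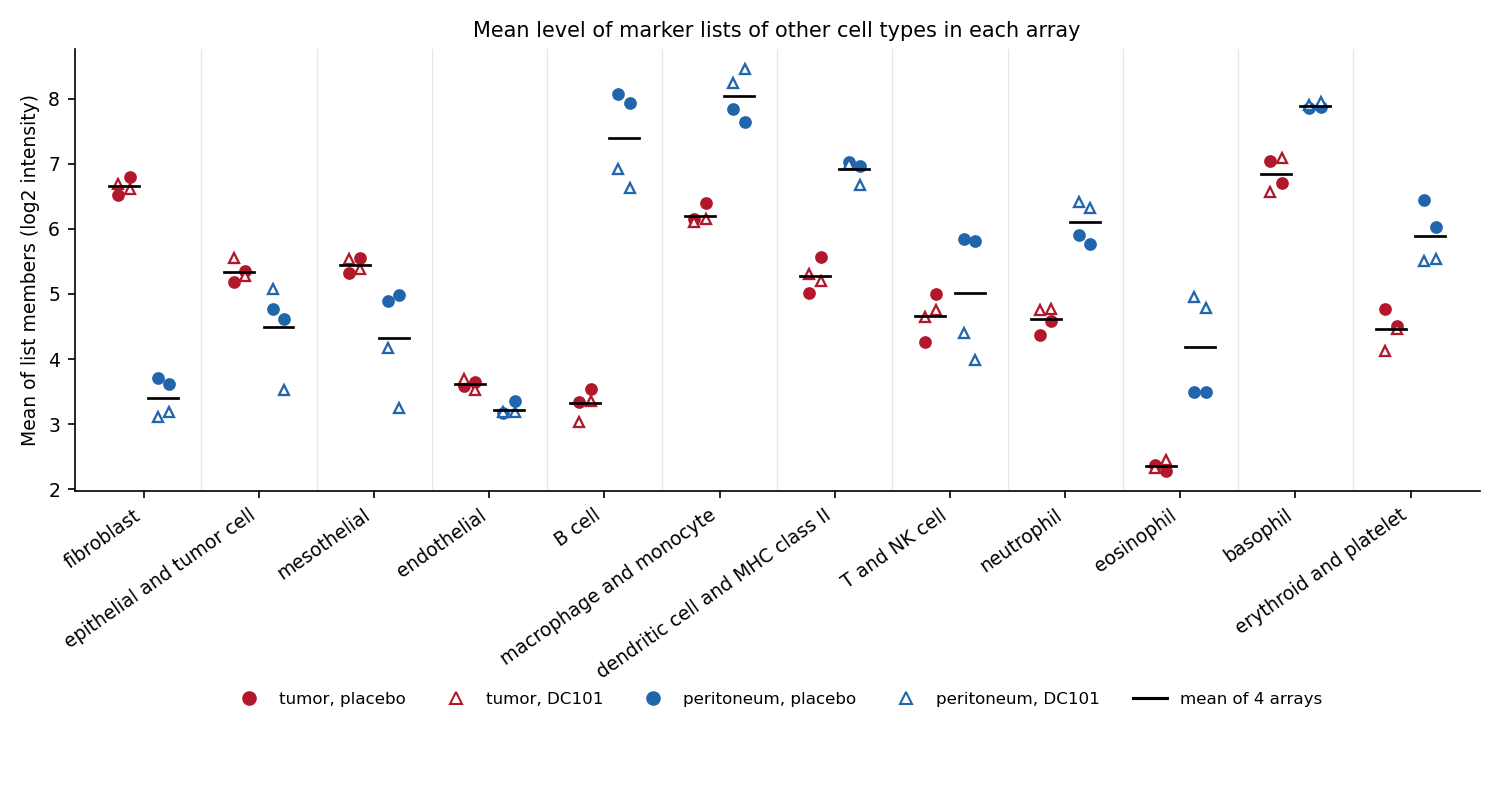
The y axis gives the mean log2 intensity of each marker list in each of the 8 arrays (red tumor, blue peritoneum, filled circles placebo, open triangles DC101, bars the mean of 4 arrays). Fibroblast markers lie at 6.52 to 6.79 in tumor arrays and B cell markers at 6.63 to 8.08 in peritoneal arrays, with no overlap in either list.

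Next, granule proteases and other proteases listed for MC were compared. Of 16 measured protease genes 3 were higher in tumor MC and 3 lower, with a list median of -0.25. Mcpt1, a mucosal-type chymase, read 9.60, 9.20, 10.95 and 10.75 in tumor MC and 1.5, 3.94, 1.71 and 2.57 in peritoneal MC, a log2 difference of 7.69 (SE 0.55, 207-fold, adjusted p = 5.2e-06). Its mean in peritoneal MC, 2.43, lay below the median cluster, where a value cannot be told apart from background, so the size of such folds is uncertain. Mcpt2, its neighbor in the mucosal type, read 11.41, 11.13, 11.57 and 11.27 in tumor MC and 2.30, 7.0, 4.23 and 7.67 in peritoneal MC (66-fold, adjusted p = 0.00112). All tumor arrays were above all peritoneal arrays for both genes, and the second array of each peritoneal group was the higher one. Tpsab1, which encodes the tryptase Mcpt7, was 4.89-fold higher with 10.03 to 10.84 against 7.93 to 8.67.

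The other proteases of the connective tissue type were not called. Cma1, the mouse chymase also called Mcpt5, read 10.89, 10.57, 10.85 and 10.95 in tumor MC and 11.01, 10.70, 10.71 and 10.93 in peritoneal MC, a log2 difference of -0.02 (SE 0.15). For Mcpt4 the difference was -0.33 (SE 0.15), for the tryptase Tpsb2 0.25 (SE 0.14) and for carboxypeptidase A3, Cpa3, -0.22 (SE 0.15), none of them called. Among further granule proteases, Ctsg, the chymotrypsin-like serine protease cathepsin G, read 6.02, 6.2, 5.75 and 6.22 in tumor MC and 10.01, 9.88, 9.38 and 9.24 in peritoneal MC. This 11.9-fold difference (adjusted p = 4.45e-07) separated all arrays. Prss34, the tryptase Mcpt11 of basophils and MC, was 4.47-fold lower. The third lower member of the list, Dpp4, is a membrane dipeptidase and not a granule protease, and was 9.26-fold lower. Granzyme B and Mcpt8 were not called over both treatments because the direction differed between the arms, as described with the placebo arrays. Among genes that set mucosal MC apart, Itgb7, an integrin chain of mucosal homing, was 2.37-fold lower in tumor MC and its partner Itgae differed by 0.02 (SE 0.29). All 11 B cell markers were lower in the same tumor arrays, and the part of other cells in the Itgb7 value was not tested. Mcpt9 differed by 0.76 (SE 0.22) at levels of 2.66 or less.

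**Figure D3:**
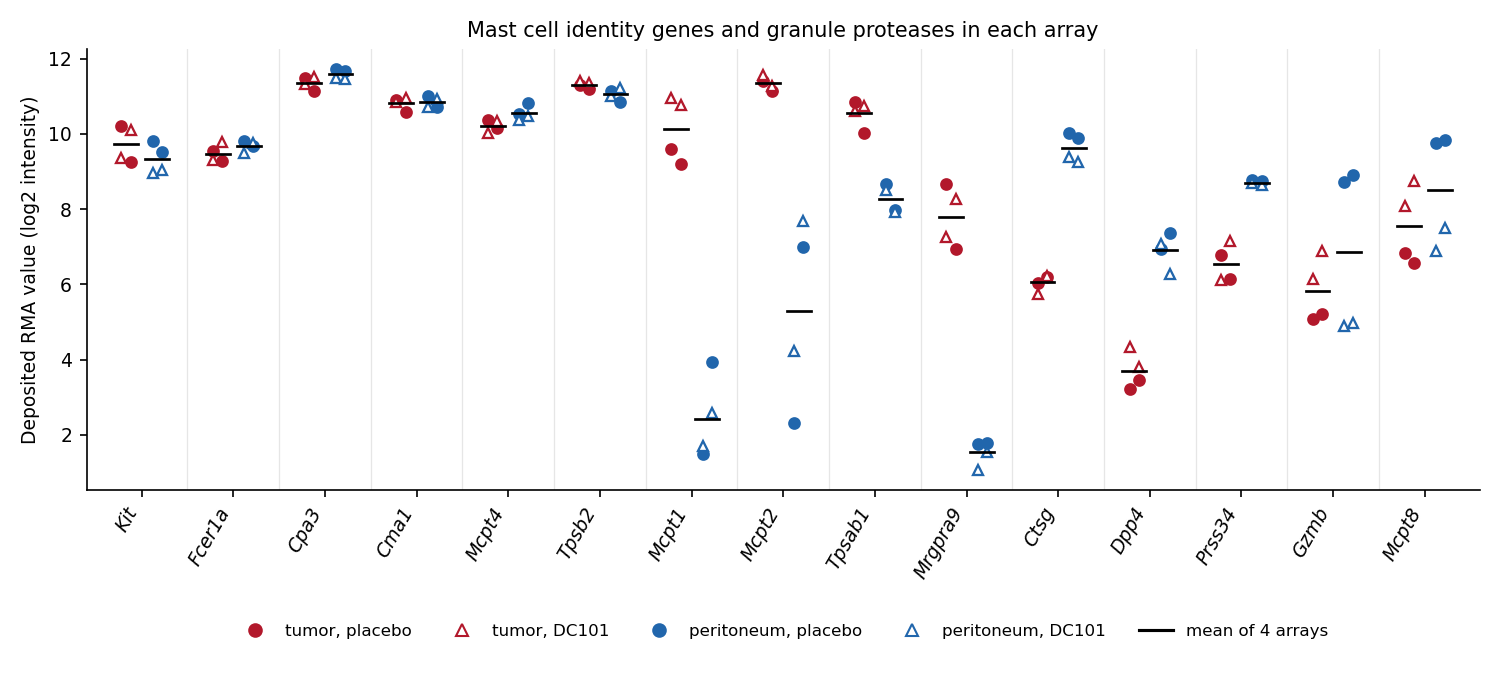
Points are the deposited log2 intensities of MC identity genes and proteases in each array (red tumor, blue peritoneum, filled circles placebo, open triangles DC101, bars the mean of 4 arrays). Kit, Fcer1a, Cpa3, Cma1, Mcpt4 and Tpsb2 overlap between the tissues, Mcpt1, Mcpt2, Tpsab1 and Mrgpra9 are higher in every tumor array, and Gzmb and Mcpt8 split the peritoneal arrays by treatment.

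Enzymes that make the stored mediators shifted in part. Ddc, the decarboxylase for serotonin and dopamine, was 6.46-fold higher in tumor MC, at 5.32 to 6.85 against 3.39 to 3.54. Hnmt, which methylates and inactivates histamine, was 4.28-fold lower. Tph1, the first enzyme of serotonin synthesis, read 9.65, 8.79, 9.23 and 9.95 in tumor MC and 9.59, 9.31, 7.47 and 8.09 in peritoneal MC and was not called. Of 12 heparin and serglycin genes 3 were higher, Ext1 (3.02-fold), which elongates the chain, and the modifying enzymes Hs2st1 (2.57-fold) and Glce (2.2-fold). Lower were 2, a count that was 1 without any of tumor placebo array 2, tumor DC101 array 1, peritoneal placebo array 2 or peritoneal DC101 array 1: Ndst2, the N-deacetylase and sulfotransferase of MC heparin (3.86-fold), and Xylt1, which starts the chain (2.11-fold) and is the call lost in these cases. Srgn, the serglycin core protein, differed by -0.03 (SE 0.15).

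Of 15 eicosanoid genes 5 were lower and 2 higher in tumor MC. Alox15, the 12/15-lipoxygenase, read 2.52, 2.80, 3.0 and 3.08 in tumor MC and 10.13, 9.95, 9.74 and 9.65 in peritoneal MC (130-fold, adjusted p = 5.13e-08). Ltc4s, which makes leukotriene C4, read 5.78, 4.62, 5.54 and 5.78 against 9.46, 9.13, 10.73 and 11.20 (25.9-fold lower). Ptgs2, the inducible cyclooxygenase, read 10.09, 10.20, 10.46 and 10.14 in tumor MC and 4.85, 4.62, 5.44 and 4.99 in peritoneal MC (38.1-fold higher). Each of these genes separated the tissues by more than 3 units on the log2 scale. Prostacyclin synthase, Ptgis (10.8-fold), the prostaglandin-degrading Hpgd (5.92-fold) and thromboxane synthase, Tbxas1 (4.46-fold), were lower too, and the phospholipase Pla2g4a was 2.35-fold higher. Alox5 (log2 difference 0.11), Alox5ap (-0.29) and the MC prostaglandin D synthase Hpgds (0.77) were not called. Alox15 and Ptgis are also expressed by peritoneal macrophages, whose markers were higher in the same arrays, and their part in these differences was not tested.

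Genes of FceRI signaling were lower more often than higher, with 9 of 28 lower, 3 higher and a list median of -0.48. Syk, the kinase recruited by the receptor, read 5.62, 5.21, 4.91 and 5.65 in tumor MC and 7.81, 7.84, 8.34 and 8.06 in peritoneal MC (6.33-fold, adjusted p = 9.42e-06). Several genes that restrain MC activation were also lower, Pirb (5.65-fold), Cd300a (7.07-fold), the inhibitory Fc receptor Fcgr2b (4.66-fold) and the phosphatase Ptpn6 (3.79-fold). Lat, the adaptor downstream of Syk, was 4.91-fold higher over both treatments, at 8.68 to 9.77 against 7.78, 8.37, 5.71 and 5.99, so that its peritoneal DC101 arrays were the low ones. Clnk, a related adaptor (2.72-fold), and Cd200r3, an activating receptor (2.28-fold), were higher as well. None of the 3 higher calls held without the peritoneal DC101 arrays, and 1 held without tumor DC101 array 2. Clnk was also lost without tumor DC101 array 1, peritoneal placebo array 1 or either peritoneal DC101 array. Syk, Pirb, Fcgr2b and Ptpn6 are expressed by B cells or macrophages too, and the part of those cells was not tested.

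Among 22 receptors of the Mrgpr family and other MC G protein-coupled receptors, 1 was higher and 6 were lower on the list. Mrgprx1 was the 1 higher member (2.55-fold), and it stayed called only when tumor DC101 array 1 or peritoneal DC101 array 1 was the array left out. The largest receptor rise lay outside the list: Mrgpra9, an orphan receptor of the Mrgpr family, read 8.67, 6.93, 7.27 and 8.26 in tumor MC and 1.77, 1.77, 1.07 and 1.53 in peritoneal MC (75.8-fold, adjusted p = 1.34e-06). No array overlapped, and tumor placebo array 1 and DC101 array 2 were again the higher ones. Mrgprb2, the receptor for basic secretagogues, differed by -0.43 (SE 0.34) and Mrgprb1 by -0.52 (SE 0.29). Cysltr1, a leukotriene receptor, was 6.78-fold lower. In the release machinery 16 of 19 members were not called, and the called share of 15.8% was near the 14.6% of all clusters. Rab27b, a granule GTPase, was 2.85-fold higher, a call lost without the peritoneal DC101 arrays. Its paralog Rab27a was 6.1-fold lower. Sytl2, a partner of RAB27, was the other higher member, and 1 higher call was left without tumor placebo array 1, either tumor DC101 array, peritoneal placebo array 2 or either peritoneal DC101 array.

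Of 25 cytokine genes 12 were higher in tumor MC and 1 was lower, against shares of 8.42% and 6.19% over all clusters, with a list median of 1.03. Il6, an inflammatory cytokine, read 8.94, 7.99, 8.47 and 9.12 in tumor MC and 5.0, 4.75, 3.68 and 4.46 in peritoneal MC (17.9-fold). Il13, a type 2 cytokine, read 9.52, 7.21, 7.22 and 7.66 against 3.26, 2.68, 3.81 and 3.21 (25.4-fold), with tumor placebo array 1 the highest. Il4, its neighbor in the genome, went the other way with 5.92, 4.72, 4.55 and 5.06 against 6.47, 6.27, 7.65 and 7.12 (3.52-fold lower), a call lost without the peritoneal DC101 arrays, where the log2 difference was -1.05 (adjusted p = 0.101), and with ordinary least squares. Tumor and peritoneal arrays did not overlap for any of these genes. Kitl, the ligand of KIT, read 8.0, 8.30, 8.44 and 7.87 against 2.82, 2.86, 3.77 and 4.08 (27.3-fold), and the alarmin Il33 was 19.5-fold higher. Tnf (7.73-fold), Csf1 (6.25-fold), Il1a (4.79-fold), Lif (4.64-fold), Il1b (2.6-fold) and Csf2 (2.59-fold) followed. Among the receptors, Il1r1 was 12.1-fold higher, and Il5ra, the IL-5 receptor chain, was 15.6-fold lower at 1.68 to 2.13 in tumor MC. Kitl, Il33, Csf1 and Il1r1 are also fibroblast products, and fibroblast markers rose in the same arrays. The part of such cells was not tested.

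Chemokine ligands were called for 22 of 27 genes, 16 higher and 6 lower. Cxcl5, a neutrophil attractant, read 8.55, 9.01, 9.16 and 8.96 in tumor MC and 2.47, 2.99, 2.67 and 2.41 in peritoneal MC (77.8-fold). The monocyte attractants Ccl12 (55.2-fold) and Ccl7 (24.6-fold) and the interferon-induced Cxcl10 (31.4-fold) and Cxcl9 (13.1-fold) were higher as well. Ccl24, eotaxin-2, read 2.73, 3.42, 4.23 and 3.33 in tumor MC and 8.59, 8.27, 10.22 and 11.10 in peritoneal MC (69.4-fold lower). Cxcl13, the B cell attractant of body cavities, was 62.9-fold lower and Ccl6 12.4-fold lower. In peritoneal MC Ccl24 was higher with DC101 than with placebo, whereas Cxcl13, at 11.29 and 11.33 with placebo and 9.69 and 10.20 with DC101, was lower. Ccl8 was not called over both treatments and is described with the placebo arrays. The eotaxin receptor Ccr3 (20.7-fold), the CXCL13 receptor Cxcr5 (13.7-fold) and the CCL2 receptor Ccr2 (7.39-fold) were lower, while the scavenging receptor Ackr3 was 6.77-fold higher, among 7 lower and 3 higher of 20 receptors. Cxcr5 is a B cell receptor and Cxcl13 and Ccl24 are made by macrophages of the peritoneum, and the markers of both cell types were higher in peritoneal arrays, without a test of their part. In the tumor arrays 10 of 11 fibroblast markers, Krt8, Krt18 and Msln were higher. The part of other cells in the chemokines higher there was not tested either.

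**Figure D4:**
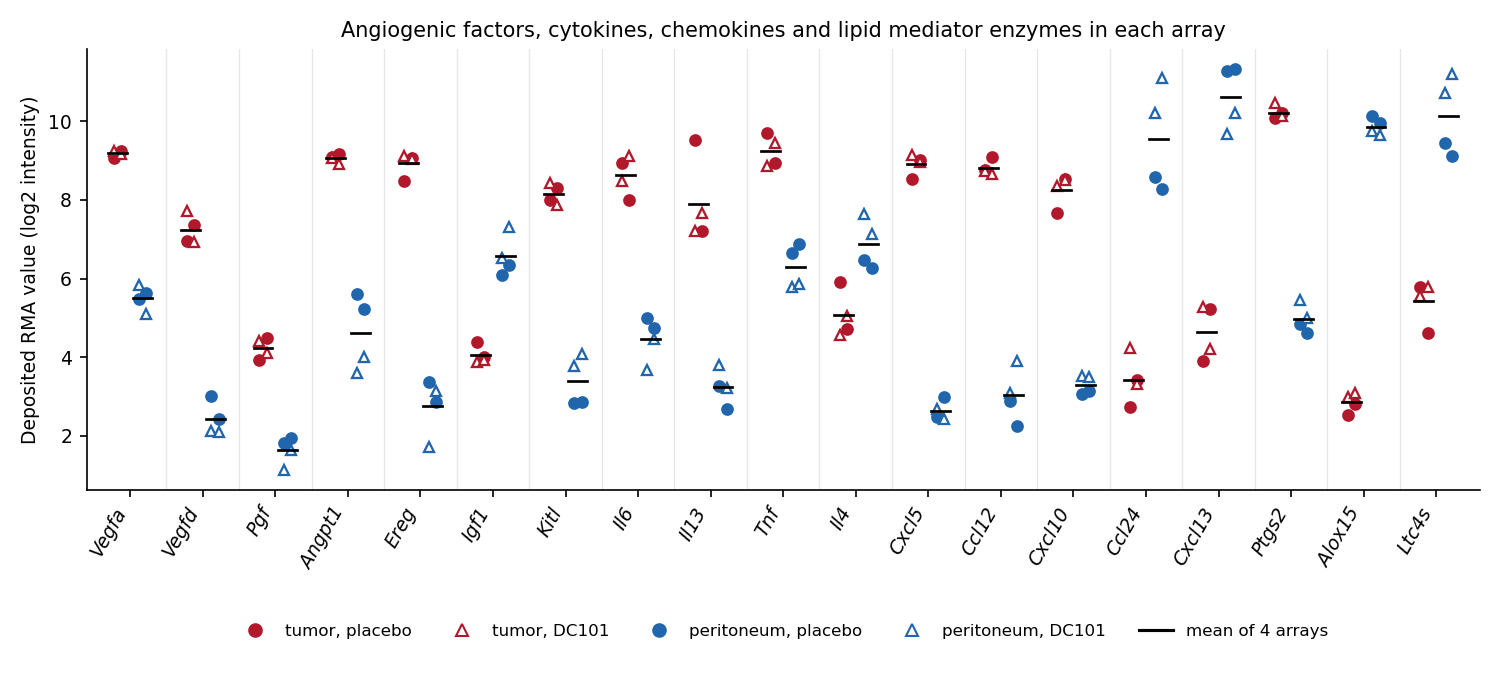
Points are the deposited log2 intensities of 19 angiogenic factors, cytokines, chemokines and lipid mediator enzymes in each array (red tumor, blue peritoneum, filled circles placebo, open triangles DC101, bars the mean of 4 arrays). Each gene shown separates the 4 tumor arrays from the 4 peritoneal arrays, upward for Vegfa to Ereg, Kitl to Tnf, Cxcl5 to Cxcl10 and Ptgs2, downward for Igf1, Il4, Ccl24, Cxcl13, Alox15 and Ltc4s. Over all clusters 27.8% separate the arrays in this way.

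Of 30 angiogenic factors and receptors 14 were higher in tumor MC and 1 was lower, with a list median of 1.24. Vegfa, the main ligand of the blocked receptor VEGFR2, read 9.06, 9.25, 9.26 and 9.18 in tumor MC and 5.47, 5.63, 5.82 and 5.09 in peritoneal MC (12.9-fold, adjusted p = 4.45e-07). The lymphatic factor Vegfd read 6.95, 7.35, 7.72 and 6.94 against 3.02, 2.43, 2.11 and 2.1 (28.3-fold). Angpt1, the ligand of TIE2, read 9.08, 9.18, 9.06 and 8.91 against 5.61, 5.22, 3.60 and 4.0 (21.9-fold). Tumor arrays lay close together for all of these, and the difference was present in both treatment arms. The EGF receptor ligands Ereg (71.7-fold) and Hbegf (34-fold) had the widest differences of the list. Vegfc (4.08-fold), placental growth factor, Pgf (6.04-fold), Angptl4 (6.81-fold) and Sema3c (16.5-fold) were higher too. Igf1 was the 1 lower member (5.71-fold). Fgf2, basic fibroblast growth factor, read 3.05, 2.96, 2.44 and 3.01 in tumor MC and 3.06, 3.77, 2.87 and 2.61 in peritoneal MC, with a log2 difference of -0.21 (SE 0.21), and Hgf differed by -0.18 (SE 0.35). Fibroblasts also express Vegfd, Angpt1, Pgf and Sema3c, 10 of 11 fibroblast markers were higher in the same tumor arrays, and their part was not tested.

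Of 23 collagen and matrix genes 17 were higher in tumor MC and none was lower, with a list median of 2.65, and 6 were not called, among them Fn1, fibronectin, with a difference of 0.08 (SE 0.13). Col6a1, a collagen VI chain, read 9.94, 10.04, 10.12 and 9.87 in tumor MC and 3.89, 4.75, 3.13 and 2.29 in peritoneal MC (89.1-fold), and Col6a3 was 61.5-fold higher. The gelatinase Mmp2 read 7.66, 7.65, 7.81 and 7.71 against 3.30, 3.07, 2.57 and 3.10 (25.9-fold). No tumor array overlapped a peritoneal one. Mmp14, which activates pro-MMP2 (25.4-fold), Adamts1 (24.4-fold), tissue plasminogen activator, Plat (23.5-fold), and the inhibitor Timp1 (6.96-fold) were higher, while Mmp9 was 4-fold lower. In that list of 30 matrix proteases and inhibitors 9 were higher and 7 lower, and the lower count fell to 4 without the peritoneal DC101 arrays. Integrins divided by chain: Itga3 (17.8-fold), Itgb8 (15.1-fold) and Itgb5 (11.7-fold) and the ligand Vcam1 (22.6-fold) were higher, and Itga4, which binds VCAM1, was 12.6-fold lower. Collagen genes are part of the fibroblast marker list, so both counts rest in part on the same genes, and the part of fibroblast RNA in the matrix group was not tested.

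Genes induced by low oxygen were higher for 15 of 31 and lower for 1, with a list median of 1.02. Egln3, a prolyl hydroxylase that marks HIF proteins for decay and is itself a HIF target, read 8.33, 8.97, 8.83 and 8.38 in tumor MC and 4.67, 4.16, 4.69 and 4.03 in peritoneal MC (18.8-fold, adjusted p = 7.72e-07). Car9, a carbonic anhydrase of hypoxic tissue, read 6.45, 6.59, 6.95 and 6.99 against 4.18, 4.02, 3.48 and 3.41 (7.85-fold). Bnip3, a mitophagy receptor, read 7.60, 7.98, 8.49 and 7.86 against 5.34, 5.54, 5.44 and 5.34 (5.93-fold). All tumor arrays were above all peritoneal arrays. Ndrg1 (9.71-fold) and the glycolytic enzymes Pgk1 (4.4-fold) and Tpi1 (3.82-fold) were higher, and the glucose transporter Slc2a1 2.75-fold. Ldha, lactate dehydrogenase, differed by 0.29 (SE 0.16), Slc2a3 by -0.70 (SE 0.44) and Hk2 by 0.80 (SE 0.23), none of them called. Fibroblast markers, Krt8, Krt18 and Msln were higher in the same tumor arrays, and the part of other cells was not tested.

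Promoters of the genes induced by low oxygen were searched for ACGTG, the core of the hypoxia response element, on both strands. In windows of 300 bases, 250 before and 50 from the RefSeq start on (build GRCm38.p6), it was found for 13 of the 14 higher members with a window, for 8 of the 14 uncalled members with one, and for 21.8% of all 27025 genes with a window. The windows of the 3 higher members with 1 annotated start, a match and the largest differences are shown because they carry the letters behind that count. Capitals mark the match or, on the other strand, its reverse complement.
Egln3, chr12:54203825-54204124, minus strand: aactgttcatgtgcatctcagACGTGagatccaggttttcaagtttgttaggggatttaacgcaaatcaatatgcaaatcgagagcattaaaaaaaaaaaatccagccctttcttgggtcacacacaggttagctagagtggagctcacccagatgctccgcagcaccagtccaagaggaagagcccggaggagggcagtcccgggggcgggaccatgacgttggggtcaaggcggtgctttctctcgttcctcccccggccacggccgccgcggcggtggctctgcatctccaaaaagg
Car9, chr4:43506776-43507075, plus strand: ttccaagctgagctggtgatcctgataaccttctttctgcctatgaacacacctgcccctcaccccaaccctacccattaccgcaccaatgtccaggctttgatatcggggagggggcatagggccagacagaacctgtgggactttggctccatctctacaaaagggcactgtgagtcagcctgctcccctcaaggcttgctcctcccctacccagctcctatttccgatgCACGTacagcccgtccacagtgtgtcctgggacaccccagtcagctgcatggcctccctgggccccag
Bnip3, chr7:138909457-138909756, minus strand: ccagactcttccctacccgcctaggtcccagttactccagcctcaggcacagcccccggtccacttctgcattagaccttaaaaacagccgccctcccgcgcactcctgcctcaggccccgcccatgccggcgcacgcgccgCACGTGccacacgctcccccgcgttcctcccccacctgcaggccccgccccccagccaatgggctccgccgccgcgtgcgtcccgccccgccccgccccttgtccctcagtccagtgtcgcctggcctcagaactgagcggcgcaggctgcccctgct
A match is a description of the letters, not evidence of a bound site. In Bnip3 the matches on both strands overlap as 1 palindrome.

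Interferon-stimulated genes were higher for 16 of 23 and lower for none, with a median of 1.21. Ifit1, an RNA-binding antiviral protein, read 7.54, 8.43, 8.44 and 8.42 in tumor MC and 4.69, 4.18, 4.76 and 3.86 in peritoneal MC (14.2-fold). Rsad2, viperin, read 6.21, 6.99, 6.97 and 7.04 against 3.38, 2.99, 3.35 and 3.69 (10.9-fold). Isg15, a ubiquitin-like modifier, read 7.96, 8.67, 8.71 and 8.94 against 4.90, 5.80, 5.63 and 5.74 (8.3-fold). Tumor placebo array 1 was the lowest tumor array for all 3 genes, and for the list mean at 6.27 against 6.92 to 7.17 in the others. Irf7, which amplifies the response, was 2.42-fold higher, whereas Stat2 (0.07), Irf9 (-0.28) and Mx1 (-0.47) were not called on the log2 scale. Without the peritoneal DC101 arrays the number of higher members was 8. The part of fibroblasts and other cells, whose markers were higher in the same tumor arrays, was not tested. The interferon-stimulated response element, searched on both strands as a pair of GAAA runs with any 2 bases between them, was found for 5 of the 12 higher members with a window, 4 of the 5 uncalled ones and 3.99% of all genes. Windows of the 3 members chosen as before are shown with the match in capitals, read on either strand.
Ifit1, chr19:34640639-34640938, plus strand: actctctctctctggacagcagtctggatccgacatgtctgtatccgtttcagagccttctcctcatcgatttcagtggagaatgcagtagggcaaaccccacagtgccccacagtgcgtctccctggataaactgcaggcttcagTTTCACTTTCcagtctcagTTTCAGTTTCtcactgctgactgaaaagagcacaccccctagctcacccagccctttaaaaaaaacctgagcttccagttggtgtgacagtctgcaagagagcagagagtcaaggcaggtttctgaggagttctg
Rsad2, chr12:26456403-26456702, minus strand: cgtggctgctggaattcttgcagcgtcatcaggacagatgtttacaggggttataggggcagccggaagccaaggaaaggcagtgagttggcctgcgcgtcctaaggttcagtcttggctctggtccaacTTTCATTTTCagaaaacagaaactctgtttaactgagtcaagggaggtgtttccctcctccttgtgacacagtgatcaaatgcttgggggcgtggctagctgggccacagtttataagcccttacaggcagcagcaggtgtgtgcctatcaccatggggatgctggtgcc
Isg15, chr4:156200769-156201068, minus strand: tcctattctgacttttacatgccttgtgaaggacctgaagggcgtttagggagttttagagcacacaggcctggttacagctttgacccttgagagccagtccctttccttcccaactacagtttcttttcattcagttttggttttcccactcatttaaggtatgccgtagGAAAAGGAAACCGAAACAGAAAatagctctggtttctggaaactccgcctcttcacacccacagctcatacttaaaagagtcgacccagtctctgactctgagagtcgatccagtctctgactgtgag
In Isg15 the 3 overlapping matches begin 78, 72 and 66 bases before the start.

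Cell cycle genes were higher for 25 of 30 and lower for none, with a median of 1.73. Cdk1, the kinase of mitotic entry, read 8.88, 8.90, 9.02 and 8.84 in tumor MC and 6.70, 6.88, 5.98 and 6.07 in peritoneal MC (5.66-fold). Bub1, a spindle checkpoint kinase, read 6.56, 6.97, 6.71 and 6.62 against 4.99, 4.47, 3.44 and 4.11 (5.51-fold). Peritoneal DC101 arrays were the lowest for both genes. Top2a was 4.06-fold and the proliferation marker Mki67 2.3-fold higher, while Pcna (0.39) and Ccne1 (-0.31) were not called. The CCAAT box, searched as CCAAT on both strands, was found for 20 of the 21 higher members with a window, 2 of the 5 uncalled ones and 41.1% of all genes. The windows with the largest differences are shown for 2 members, with matches in capitals.
Cdk1, chr10:69352863-69353162, minus strand: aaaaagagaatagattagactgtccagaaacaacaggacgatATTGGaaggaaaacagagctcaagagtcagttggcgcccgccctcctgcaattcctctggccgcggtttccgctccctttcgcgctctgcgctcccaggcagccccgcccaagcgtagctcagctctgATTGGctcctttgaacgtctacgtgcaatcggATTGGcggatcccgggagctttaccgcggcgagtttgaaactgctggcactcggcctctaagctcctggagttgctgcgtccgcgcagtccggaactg
Bub1, chr2:127831810-127832109, minus strand: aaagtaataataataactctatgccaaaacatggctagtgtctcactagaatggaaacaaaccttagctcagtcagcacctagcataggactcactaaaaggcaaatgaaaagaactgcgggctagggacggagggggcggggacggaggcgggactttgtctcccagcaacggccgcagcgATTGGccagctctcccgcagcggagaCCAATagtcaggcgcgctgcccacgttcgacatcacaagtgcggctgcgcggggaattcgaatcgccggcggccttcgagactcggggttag
Which cells carried these cycle transcripts was not tested, and fibroblast genes, Krt8 and Krt18 rose in the same arrays.

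Immediate early genes, which respond within minutes to activation or handling of cells, were higher for 15 of 27 and lower for none. Egr3 read 9.36, 7.86, 8.16 and 8.61 in tumor MC and 4.02, 4.89, 3.50 and 4.24 in peritoneal MC (20.2-fold). The nuclear receptors Nr4a1 (16.3-fold), Nr4a2 (12-fold) and the NF-kappaB inhibitor Tnfaip3 (8.75-fold) were higher in both treatment arms. Fos, by contrast, read 9.38, 9.48, 9.54 and 9.29 in tumor MC and 7.76, 7.12, 9.53 and 9.51 in peritoneal MC and was not called, since the peritoneal DC101 arrays reached the tumor level. For 5 of the 27 genes, among them Fos, Junb and Fosb, the tissue difference itself was called as different between the arms. Peritoneal MC were obtained by lavage and tumor MC from a tumor cell suspension, so the effect of tissue and that of preparation cannot be told apart.

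Stress and metabolic genes rose in part. In the group of unfolded protein and amino acid stress genes 10 of 20 were higher and 1 was lower, led by asparagine synthetase, Asns (9.67-fold), and the mitochondrial enzyme Shmt2 (4.27-fold). Of 11 NRF2 targets 5 were higher, including malic enzyme, Me1 (18.3-fold), and the quinone reductase Nqo1 (7.44-fold), but not Hmox1, which differed by -0.06 (SE 0.17). Among heat shock genes 3 of 13 were higher, with Cryab at 17.6-fold and Bag3 at 4.2-fold, and Hspa1b differed by -0.13 (SE 0.15). Of 20 lipid handling genes 5 were higher, 4 lower and 11 not called, with a median of 0.05. Sqle (13.3-fold) and Hmgcs1 (9.39-fold), enzymes of cholesterol synthesis, were among the higher, and the lipase Lpl (18.8-fold), the fatty acid receptor Cd36 (15.2-fold) and the carrier Fabp4 (14.7-fold) among the lower. Macrophages express these lower genes too, macrophage markers were lower in the same tumor arrays, and their part was not tested. The part of fibroblasts and other cells in the higher stress and metabolic genes was not tested either. None of 23 respiratory chain genes was called, with a list median of 0.18 and 4 genes under an adjusted p of 0.05 without reaching a fold of 2.

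Innate receptors and lysosomal genes went the other way. Of 22 Toll-like and other pattern receptors 13 were lower in tumor MC and 1 was higher, the inflammasome sensor Nlrp3 (4.61-fold), with a list median of -1.20. Tlr1, a lipopeptide receptor, read 5.39, 5.23, 5.06 and 4.88 in tumor MC and 7.76, 7.48, 6.86 and 7.11 in peritoneal MC (4.48-fold lower). Tlr7, a sensor of RNA (4.22-fold), and Tlr4, the endotoxin receptor (2.28-fold), were lower, and Tlr2 differed by 0.07 (SE 0.21). Lysosomal genes were lower for 6 of 20, with Ctsh at 6.15-fold, and the count was 3 without the peritoneal DC101 arrays. Among 20 checkpoint and costimulatory genes 5 were higher, led by Cd276 (4.54-fold), and 5 lower, led by Vsir, which encodes VISTA (6.82-fold). The 5 higher calls shrank to 1 without tumor DC101 array 1 or peritoneal DC101 array 2, and to 3 without tumor DC101 array 2. Macrophages and B cells express most of the lower receptors, their markers were higher in the peritoneal arrays, and their part was not tested.

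The largest fitted differences were ranked among called genes with 1 symbol, no overlap between the tissues and the higher tissue mean above the median cluster. Immunoglobulin and T cell receptor segments, Gm and Rik models, small RNAs and pseudogenes were left out. Most of the 15 largest rises in tumor MC started from peritoneal means below the median cluster, so their order is uncertain. They held Mcpt1, Mcpt2 and Mrgpra9, Dynap (175-fold), the growth factor Ereg and the chemokine Cxcl5. Genes of matrix and connective tissue were also present, such as Ccn1 (106-fold), Col8a1 (93.9-fold), Efemp1 (90.4-fold) and Matn2 (81.9-fold). Ccn1, a matricellular protein, read 9.64, 10.23, 10.26 and 9.98 in tumor MC and 3.71, 2.98, 3.22 and 3.30 in peritoneal MC. Kcnma1, a calcium-activated potassium channel (89.2-fold), Crabp2, a retinoic acid carrier (77.7-fold), and Slurp1, a secreted epithelial protein (76-fold), were among these rises. Most of the 15 largest falls ended at tumor means below the median cluster, so their folds and order are uncertain too. These falls were led by Prg4, lubricin, with 3.79, 3.74, 3.83 and 4.52 in tumor MC and 11.23, 11.14, 10.73 and 10.88 in peritoneal MC (130-fold). Alox15 and Ccl24, which peritoneal macrophages also express, were among them. So were the macrophage genes Vsig4 (93.9-fold), Cd5l and Adgre4 and the B cell genes Cd79a, Cd79b, Ms4a1 and Ly6d. Fibroblast markers were higher in tumor arrays, and macrophage and B cell markers in peritoneal arrays. The part of such cells in these rises and falls was not tested. Fabp2, an intestinal fatty acid carrier, was called 79.2-fold lower although peritoneal DC101 array 2 read 2.68 against 9.07 to 10.52 in the other peritoneal arrays. It was the lowest peritoneal array for Krt8 at 3.77, Krt19 at 2.44 and Epcam at 3.27.

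In the placebo arrays alone, the tissue difference called 3475 clusters (14.4%), 2031 higher and 1444 lower in tumor MC. Of the 3524 clusters called over both treatments 2805 were also called with placebo in the same direction, 2988 with DC101 and 2353 in all 3 comparisons. Mcpt1 was higher by 6.68 on the log2 scale with placebo and by 8.71 with DC101, Alox15 lower with -7.38 and -6.66, Vegfa higher with 3.61 and 3.76, and Kitl with 5.31 and 4.23. These genes had no called change of the tissue difference between the arms. With DC101, 16.1% of all clusters were called, 9.08% higher and 6.99% lower. The number of interferon genes called higher was 9 with placebo and 16 with DC101, and that of cell cycle genes 21 and 26, but the interaction was called for no member of either list.

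A difference between the arms, tested as the interaction of tissue and treatment, was called for 194 clusters (0.805%). With DC101 the tumor minus peritoneum value was shifted upward for 85 (0.353%) and downward for 109 (0.452%). These counts give the direction of the shift, not whether the tissue difference widened. In opposite directions in the arms 17 clusters were called. At an unadjusted p under 0.05 and a log2 difference of at least 1 the interaction count was 1783. With ordinary least squares in place of limma's moderated variance it was 0. It fell to 35 or 69 without tumor placebo array 1 or 2, to 22 or 25 without tumor DC101 array 1 or 2, and to 72 or 36 without peritoneal placebo array 1 or 2. Gzmb, granzyme B, read 5.09 and 5.20 in tumor placebo arrays, 6.14 and 6.88 in tumor DC101 arrays, 8.73 and 8.91 in peritoneal placebo arrays and 4.88 and 4.97 in peritoneal DC101 arrays. Its tissue difference was -3.67 with placebo and 1.58 with DC101 (interaction adjusted p = 0.000777). Mcpt8, a granule protease best known from basophils, behaved alike with -3.09 and 1.21 (adjusted p = 0.00521). Ccl8 was at 7.36 to 8.16 in tumor MC and at 2.11, 2.04, 10.72 and 11.18 in peritoneal MC, so that its difference was 5.77 with placebo and -3.32 with DC101 (adjusted p = 9.71e-05). In Cryab the difference widened from 2.05 to 6.22 (adjusted p = 0.00122), and in Ccr3 it went from -2.56 to -6.18 (adjusted p = 0.0114). For each of these genes the peritoneal arrays moved further between placebo and DC101 than the tumor arrays did.

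**Figure D5:**
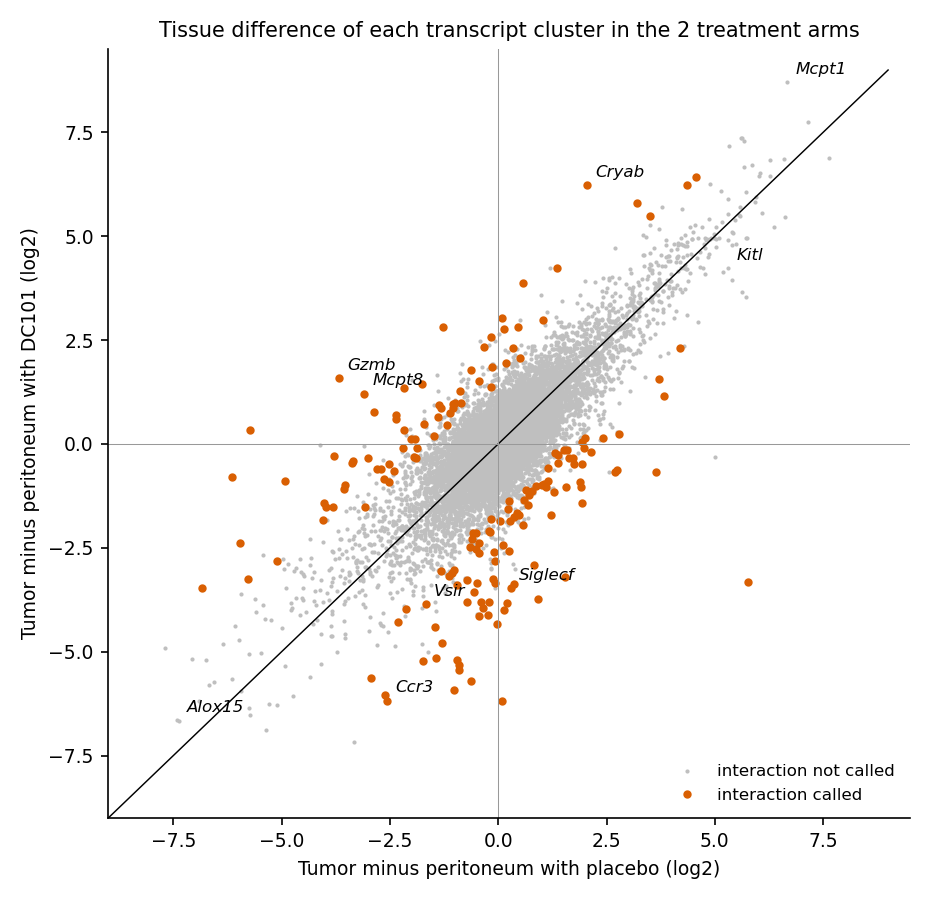
Each point is 1 of 21320 genes, with 1 cluster per gene. The x axis gives the log2 difference of tumor minus peritoneum in the placebo arrays and the y axis that in the DC101 arrays. The line marks equal differences. Orange points are the 172 of these genes with a called interaction, and Gzmb and Mcpt8 lie where the difference is negative with placebo and positive with DC101.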

How the data were processed

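RNA of sorted MC was hybridised to 8 Affymetrix mouse gene arrays, 2 in each of 4 groups. The authors deposited log2 intensities of 24111 transcript clusters after RMA; its version, the genome build and the tumor dissociation were not stated in the sources used. All arrays were used and no column was left without a sample. The platform annotation gave 21508 clusters 1 symbol, 566 several and 2037 none; 187 genes had several clusters and the one with the highest mean was taken.

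Tissue differences were fitted with limma 3.58.1 in R 4.3.3 on all clusters, with treatment as a second term, and with 1 mean per group for the placebo arrays, the DC101 arrays and the interaction. A call needed a Benjamini-Hochberg adjusted p under 0.05 and a log2 difference of at least 1. Fits were tested on simulated data. Named genes were the 15 largest rises and the 15 largest falls that passed the filters stated with them. Added were all MC identity and protease genes and up to 5 members with the lowest p in each other list. Further members were named after their values were seen. The members and lists were chosen with earlier results of these data known. Alternatives covered variance moderation, scaling, filters, thresholds, the replicate block and each array left out.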

Additional observations from a re-analysis of the deposited data

Results flagged for a closer look

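Over 526 sets of 4 arrays of a tissue, for gene lists and named genes, 25 held an array whose gap to the nearest other array, divided by the range of the set, was above Dixon's critical value. Chance gives about 1 such set in 20. Tumor placebo array 1 was the low array for Ereg (ratio 0.905), Ackr3 (0.861), Asns (0.911), Cd36 (0.834), Ifit1 (0.977), Irf9 (0.834) and Rsad2 (0.921) and the high one for Hs2st1 (0.831). Tumor placebo array 2 was high for Fap (0.955) and Itga3 (0.85). Tumor DC101 array 1 was low for Cd300a (0.867) and Fgf2 (0.856), and tumor DC101 array 2 was high for Prg4 (0.882).

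In the peritoneum, DC101 array 2 was high for the mean of the lipid handling list (0.855), which was 7.35 against 6.78 to 6.86, and for Cd63 (0.882) and Ctsc (0.843). It was low for the mean of the dendritic cell and MHC class II list (0.844) and for Itgb7 (0.838), Krt18 (0.861) and Krt19 (0.851). Peritoneal placebo array 2 was low for Cd5l (0.911) and Tpi1 (0.926) and high for Ccl3 (0.875) and the mean of the endothelial list (0.853), and peritoneal DC101 array 1 was low for Cd276 (0.846).

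The tissue difference changed between placebo and DC101 for 19 named genes by the limma interaction test, given here as the log2 difference with DC101 minus that with placebo. This value was positive for Gzmb (5.26), Mcpt8 (4.31), Cryab (4.18), Il2rb (2.74), the adaptor Clnk (2.63), the adhesion ligand Vcam1 (2.61) and the chemokine receptor Ccr6 (1.56). It was negative for Ccl8 (-9.09), the basophil and platelet integrin Itga2 (-3.88), the eosinophil lectin Siglecf (-3.75), Ccr3 (-3.61), Mmp9 (-2.56), Vsir (-2.18), Fosb (-2.16), Fos (-2.10), Tbxas1 (-2.05), Hgf (-1.93), Junb (-1.87) and the macrophage receptor Adgre1 (-1.83). Siglecf differed between the tissues by 0.28 with placebo and -3.47 with DC101, and Il2rb by -0.18 and 2.57.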

How the results depend on the processing

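Over both treatments 3524 clusters were called, against 6467 with no fold threshold and 1158 at an adjusted p under 0.01 and a log2 difference of 2. Leaving out 1 array gave 3357 to 3586 and ordinary least squares 2981. Centring on ribosomal protein genes gave 2657 higher and 1214 lower, cyclic loess 1863 and 1614. With placebo the 3475 calls became 2062 by ordinary least squares, 1175 at the stricter threshold and 2993 to 3503 with 1 array left out. With DC101 the 3875 calls became 2523, 1352 and 3198 to 4014. The 194 interaction calls became 448 with an intensity trend in the prior, 0 by ordinary least squares and 346 without dim clusters. They became 1783 at an unadjusted p with the fold threshold kept, 21 at the stricter threshold and 22 to 187 with 1 array left out. The arrays share only a replicate number (correlations of deviations -0.16 to 0.02 across clusters), and the replicate block gave 3492, 3422, 3843 and 113 calls in these 4 comparisons.

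Of 225 named genes called, 188 stayed called in the same direction under every alternative run, and 50 of 77 uncalled genes stayed uncalled. Without the peritoneal placebo arrays, an alternative chosen after seeing the data as was leaving out the peritoneal DC101 arrays, Ccl8 (-3.32), Gzmb (1.58) and Mcpt8 (1.21) changed direction. Protease members called higher were then 5, not 3, and heat shock members 5, not 3. Without the peritoneal DC101 arrays 5 protease genes, not 3, were lower and 7 T and NK cell markers, not 2. The causes were not tested. With 2 arrays per group, differences near a fold of 2 and low intensities are the least certain.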

Other observations

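Of 5 measured erythroid and platelet markers 3 were lower in tumor MC, Pf4 by 8.15-fold, Ppbp by 7.15-fold and the platelet glycoprotein Gp9 by 4.31-fold. Itga2b went the other way, with a log2 difference of 1.15, and was called higher only in 3 alternative runs. Klf1 differed by -0.27 and was not called. Among growth factor receptors, Csf1r was 3.97-fold, Csf2ra 3.45-fold, Csf3r 4.06-fold and Flt3 4.63-fold lower, the last not called without the peritoneal placebo arrays. Csf2rb2 was higher, Csf2rb, Il3ra and Kit were not called, and the decoy receptor Il1r2 (4.86-fold) and the TGF-beta receptor Tgfbr1 (2.34-fold) were higher, the last not called without tumor DC101 array 2. In the list of 25 growth factor and cytokine receptors 5 were higher and 6 lower, and the higher count was 3 without tumor DC101 array 2. Macrophages and neutrophils express several of these receptors, their markers were higher in peritoneal arrays, and their part was not tested.

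Of 9 basophil markers 2 were higher, Cd200r3 and the chemokine Ccl3 (2.2-fold), and 4 lower, among them the integrin Itga2 (4.54-fold), with a difference of -0.24 with placebo and -4.12 with DC101 and a call that was lost without any 1 of the 4 DC101 arrays. Without tumor DC101 array 2 the higher count was 1. The mean of these markers was 6.57 to 7.09 in tumor arrays and 7.86 to 7.95 in peritoneal arrays. Of 8 mesothelial markers 3 were higher, Krt8, Krt18 and Msln, which are shared with the list of epithelial and tumor cell markers, and the neuronal and mesothelial glycoprotein Gpm6a was 4.76-fold lower. The VEGF co-receptors Nrp1, at 8.28 to 8.68 in tumor arrays and 6.03 to 7.82 in peritoneal arrays, and Nrp2 (3.94-fold) were higher in tumor MC.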
